A study of Mus musculus with 3 samples.

Results

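Double-positive cells are defined here as trunk cells of mouse embryos that held at least 1 UMI (unique molecular identifier, 1 counted mRNA molecule) of both Pitx1 and Runx1 and that passed a set of exclusions meant to remove muscle, leukocyte, epithelial, neuronal, cartilage and tendon cells. A cell was kept when its barcode had 4000 UMIs or more, 500 genes or more and at most 10% of UMIs from mitochondrial genes. Among these, double-positive cells had Myf5, Myog, Ptprc, Epcam and Elavl3 at 0, Col2a1 below 10 and a sum of Scx and Tnmd of at most 2 UMIs. The cells were thus chosen by measured UMI counts. There were 73 such cells among 7114 kept cells at embryonic day E13.5 (1.03%, exact 95% interval 0.805 to 1.29%) and 29 among 6140 at E12.5 (0.472%, 0.317 to 0.678%). Together they were 102 of the 13254 kept cells of the E12.5 and E13.5 libraries, and of 19567 in the whole series. They are described against all other kept cells of the same library with a Pdgfra UMI, called other Pdgfra cells below, which numbered 3205 at E13.5 and 2487 at E12.5.

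The study concerns the early development of mouse brown adipose depots, with SOX9 among the markers. Trunk pieces spanning segments C3 to T2, with neural tube and with derivatives of somites and lateral plate but without forelimbs and thoracic organs, came from embryos of 3 stages, of which E13.5 and E12.5 are compared here and E11.5 is given as context. Cells freed with TrypLE from 3 littermates were pooled into 1 library per stage and sequenced with the 10x Genomics 3' chemistry. The labels used here give no strain, genotype or treatment. With 1 library per stage there is no replicate and no test: the intervals given cover counting error only, and stage, litter, sex of the pooled embryos and library cannot be told apart.

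Pitx1 encodes a paired-type homeodomain factor best known from the hindlimb, the mandible and the pituitary, where it helps to set the identity of the tissue. Runx1 encodes the DNA-binding part of a core-binding factor that is needed for blood stem cells and is also active in some skeletal, hair follicle and connective tissue progenitors. Sox9, the third marker given for these cells, encodes the transcription factor that commits mesenchyme to cartilage and is also made in other progenitor populations.

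Because Pitx1, Runx1 and the 8 genes of the exclusions chose the cells, their values are a description only. At E13.5 a double-positive cell held between 1 and 28 Pitx1 UMIs (median 3) and between 1 and 12 Runx1 UMIs (median 2). At E12.5 the ranges were 1 to 13 for Pitx1 (median 2) and 1 to 9 for Runx1 (median 3). Just inside the threshold, 4 E13.5 cells and 5 E12.5 cells had a single UMI of both genes, while 39 (E13.5) and 17 (E12.5) had 2 or more of each. Just outside it, 100 cells of the E13.5 library and 54 of the E12.5 library met every other condition but had Pitx1 only, and 519 and 254 had Runx1 only. The exclusions removed 40 of 113 cells with both genes at E13.5 and 42 of 71 at E12.5, of which 16 and 27 had a UMI of Myf5 or Myog, 2 genes of muscle commitment. A sum of 2 for Scx and Tnmd was seen in 9 E13.5 and 5 E12.5 double-positive cells, and a sum of 3 in 11 and 5 cells left out.

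Detection of the 2 genes overlapped, which describes the rule's own genes. At E13.5, among cells that passed the exclusions, Runx1 was found in 42.2% of the 173 cells with Pitx1 (34.7 to 49.9%) and in 11.97% of the 4337 cells without it (11.02 to 12.97%). At E12.5 the shares were 34.9% of 83 cells with Pitx1 (24.8 to 46.2%) and 10.2% of 2497 cells without it (9.01 to 11.4%). With every cell thinned to 4000 UMIs the shares were 27.9 and 6.43% at E13.5 and 18.9 and 4.37% at E12.5. Cells with 2 Elavl3 UMIs or more, which are neuronal and should lack Pitx1, had Pitx1 in 0.494% at E13.5 and 0.587% at E12.5, at median depths of 6683 and 8412 UMIs, against 11576 and 12778 UMIs in the cells with Pitx1. Runx1 in those neuronal cells was at 5.43% at E13.5 and 2.67% at E12.5. Erythroid cells, those with over 20% haemoglobin, were deeper, with medians of 13459 UMIs (E13.5) and 19011 UMIs (E12.5). Pitx1 was present in 4 of 184 erythroid E13.5 cells (2.17%) but 0 of 198 erythroid E12.5 cells. Their Runx1 shares were 5.43% (E13.5) and 3.54% (E12.5). After thinning, Pitx1 was found in no erythroid cell of either library.

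The libraries held 113402193 UMIs at E13.5, 94155624 at E12.5 and 103383215 at E11.5. Double-positive cells were deeper than other Pdgfra cells, with a median of 14239 against 10374 UMIs at E13.5 and 16715 against 12104 UMIs at E12.5. A doublet caller marked 1 of the 73 double-positive cells at E13.5 and 0 of the 29 at E12.5, against 104 of 3205 and 76 of 2487 other Pdgfra cells. Among kept cells the E13.5 and E12.5 libraries shared 10 barcodes, and no double-positive barcode was shared. RNA outside cells was estimated at 2.20% of the UMIs of Pdgfra cells under 1% haemoglobin in the E13.5 library and 1.59% in the E12.5 library, whereas all Pdgfra cells gave 27.9 and 19.9%. Xist, the RNA that silences an X chromosome in female cells, was found in 97.3% of double-positive cells and 97.3% of other Pdgfra cells at E13.5, against 24.1 and 26.9% at E12.5, so the sex makeup of the pools moves with stage.

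The name mesenchyme fits most of the cells by their markers. Pdgfra, the receptor that marks mesenchyme, was found in 50 of 73 double-positive cells at E13.5 (68.5%) and 21 of 29 at E12.5 (72.4%), although the rule did not ask for it. Col1a1, the main fibrillar collagen of connective tissue, was found in 72 of 73 and 29 of 29. Twist1, a mesenchymal transcription factor, was found in 57 of 73 and 29 of 29. A single cell at E13.5 lacked all 3. Lum, a connective tissue proteoglycan, was found in 94.5% of double-positive cells against 74.7% of other Pdgfra cells at E13.5, and in 89.7% against 56.8% at E12.5. Leukocyte markers were near 0 in double-positive cells: the 9 genes of that list outside the rule summed to 10.5 CPM (UMIs of a gene per 1000000 UMIs of the cells) at E13.5 and to 0 at E12.5, where none of the 9 had a UMI. The rule bears on these sums, since it set Ptprc to 0.

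Sox9 was higher in the double-positive cells in both libraries, by more than 2-fold at E13.5 only. At E13.5 its level was 177 CPM in double-positive cells (153 to 205) against 75.7 CPM in other Pdgfra cells (72.9 to 78.5), a log2 ratio of 1.23 (1.01 to 1.44). At E12.5 it was 244 CPM (203 to 290) against 149 CPM (145 to 153), a log2 ratio of 0.71 (0.44 to 0.96). Sox9 was found in 58.9% of double-positive cells against 33.9% of other Pdgfra cells at E13.5, and in 79.3% against 39.0% at E12.5. After thinning to 4000 UMIs the shares were 38.4 against 19.3% and 37.9 against 24.2%. The E12.5 log2 ratio followed the choice of cells: it was 1.61 against other Pdgfra cells under the same exclusions, 1.17 against those without Pitx1 or Runx1, 1.01 for double-positive cells with a Pdgfra UMI and 0.03 when the muscle, tendon and other exclusions were dropped.

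Cartilage matrix genes were mixed. Of the 6 measured genes of the chondrogenic list that the rule did not use, 1 (Sox9) was at least 2-fold higher at E13.5 and none was lower, and at E12.5 none was higher and 3 (Col9a1, Col9a2 and Col9a3) were lower. A gene counts as measured where the mean of its 2 levels was 10 CPM or more in both libraries, and as called where the log2 ratio was at least 1 in size. Over all 7967 measured genes 2.41% were called higher and 3.2% lower at E13.5 (5.61% in all), and 2.47% higher and 4.66% lower at E12.5 (7.13% in all). Col9a1, a cartilage collagen, had 19.1 against 24.2 CPM at E13.5 and 42.2 against 101.9 CPM at E12.5. Col11a1, its fibrillar partner, had 123 against 92.2 CPM at E13.5 and 97.9 against 147 CPM at E12.5. The interval of the Col9a1 ratio included 0 at E13.5 (−1.06 to 0.29) and not at E12.5 (−1.95 to −0.67). The rule bears on these genes, since it kept Col2a1 below 10 UMIs in double-positive cells only. Against other Pdgfra cells under the same exclusions, the E12.5 log2 ratios of Col9a1, Col9a2 and Col9a3 were 0.05, −0.10 and 0.93, so none of the 3 was called. The median of the 6 genes was then 0.999 at E13.5 and 0.49 at E12.5, against 0.62 and −0.81 without the exclusions in those cells.

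A group of genes with some of the largest ratios encodes the contractile apparatus of smooth muscle. Acta2, smooth muscle alpha-actin, had 2766 CPM in double-positive cells (2667 to 2869) against 184 CPM in other Pdgfra cells (180 to 189) at E13.5, and 1048 CPM (962 to 1140) against 145 CPM (141 to 150) at E12.5. The log2 ratios were 3.91 (3.85 to 3.97) and 2.85 (2.72 to 2.98). Tagln, which encodes the actin-binding protein transgelin, had 1429 against 125 CPM at E13.5 and 703 against 130 CPM at E12.5. Cnn1, the calponin of smooth muscle, had 89.7 against 4.10 CPM and 40.3 against 2.75 CPM. The intervals of the 2 sets of cells did not overlap for any of the 3 genes in either library. RNA outside cells held 266 CPM of Acta2 at E13.5 and 207 CPM at E12.5, less than double-positive cells and more than other Pdgfra cells.

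Myl9, a regulatory light chain of non-sarcomeric myosin, had 528 against 98.9 CPM at E13.5 and 515 against 156 CPM at E12.5. Tpm2, a tropomyosin, had 484 against 142 CPM and 348 against 140 CPM. Actn1, an actin crosslinker, had 184 against 74.7 CPM and 250 against 97.2 CPM. In a list of 18 contractile genes drawn up after these values had been seen, 13 were measured: 7 were called higher and none lower at E13.5, and 6 higher and none lower at E12.5, with medians of 1.27 and 0.80, beside −0.03 and 0.02 over all measured genes. Srf, the transcription factor that drives many of these genes, was not called, with log2 ratios of 0.16 (−0.92 to 0.95) and 0.73 (−0.49 to 1.59).

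**Figure D1:**
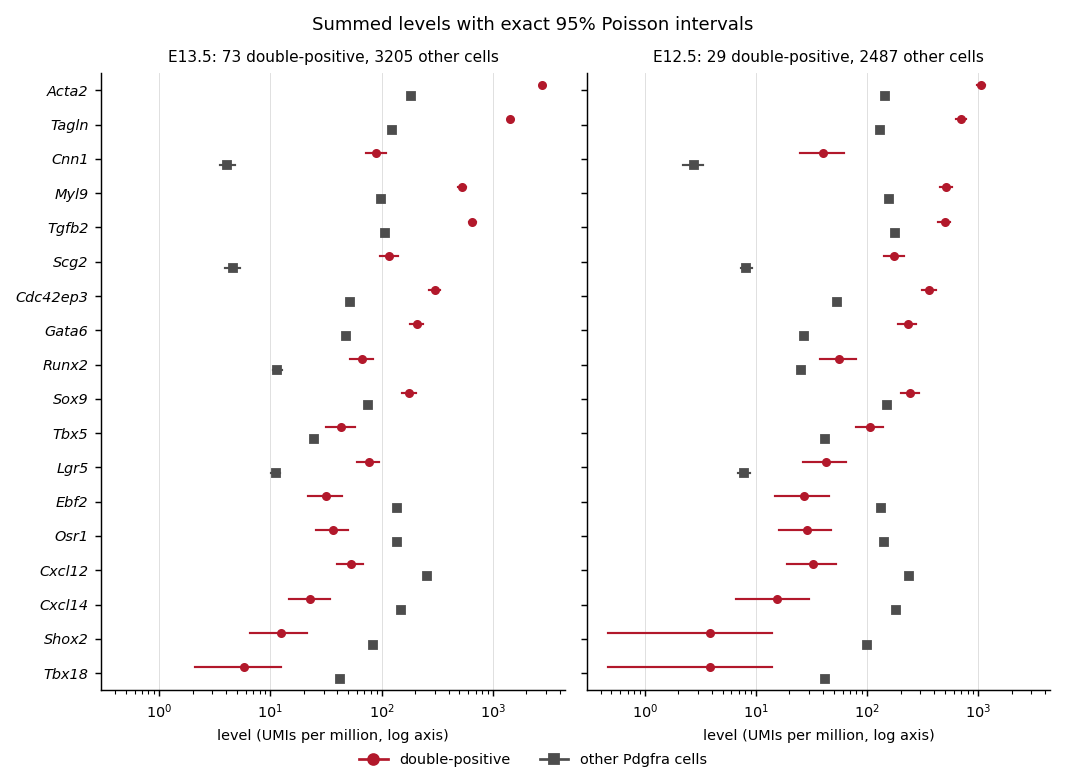
Summed levels of 18 genes in double-positive cells (circles) and other Pdgfra cells (squares) in the E13.5 library (left) and the E12.5 library (right), in CPM on a log axis; lines are exact 95% Poisson intervals. The 12 genes from Acta2 down to Lgr5 lie higher in double-positive cells in both libraries, and the 6 from Ebf2 down to Tbx18 lie lower.

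Acta2 and Tagln were spread over most of the cells, whereas Cnn1 was found in 26 of 73 and 7 of 29. Acta2 was found in 60 of 73 double-positive cells at E13.5 and 22 of 29 at E12.5, and 3 cells carried 20.3 and 36.8% of its UMIs. Per cell, Acta2 ranged up to 9765 CPM with a median of 1321 CPM in double-positive cells at E13.5, where the median of other Pdgfra cells was 0 and their 90th percentile 316 CPM. At E12.5 it ranged up to 5520 CPM with a median of 449 CPM, against a median of 0 and a 90th percentile of 228 CPM. The groups overlapped, since 13 E13.5 and 7 E12.5 double-positive cells had no Acta2 UMI and the highest other Pdgfra cell reached 10230 CPM at E13.5.

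Contractile genes went together from cell to cell. Over the 73 cells at E13.5 Spearman's rho between per-cell levels was 0.75 for Acta2 and Tagln, 0.75 for Acta2 and Myl9 and 0.82 for Tagln and Myl9. Over the 29 cells at E12.5 the same pairs gave 0.80, 0.66 and 0.75. For Acta2 and Sox9 it was 0.21 and −0.06, and for Acta2 and Gata6 0.13 and 0.30. Cells of a library share its free RNA but differ in depth. Double-positive cells held 5710 to 42094 UMIs at E13.5 and 6565 to 40324 UMIs at E12.5. The part of depth in these figures was not tested, so they only describe the cells at hand. Acta2 at 10 UMIs or more and Sox9 occurred in the same cell in 31 of 73 double-positive cells at E13.5 (42.5%) and 9 of 29 at E12.5 (31.0%).

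**Figure D2:**
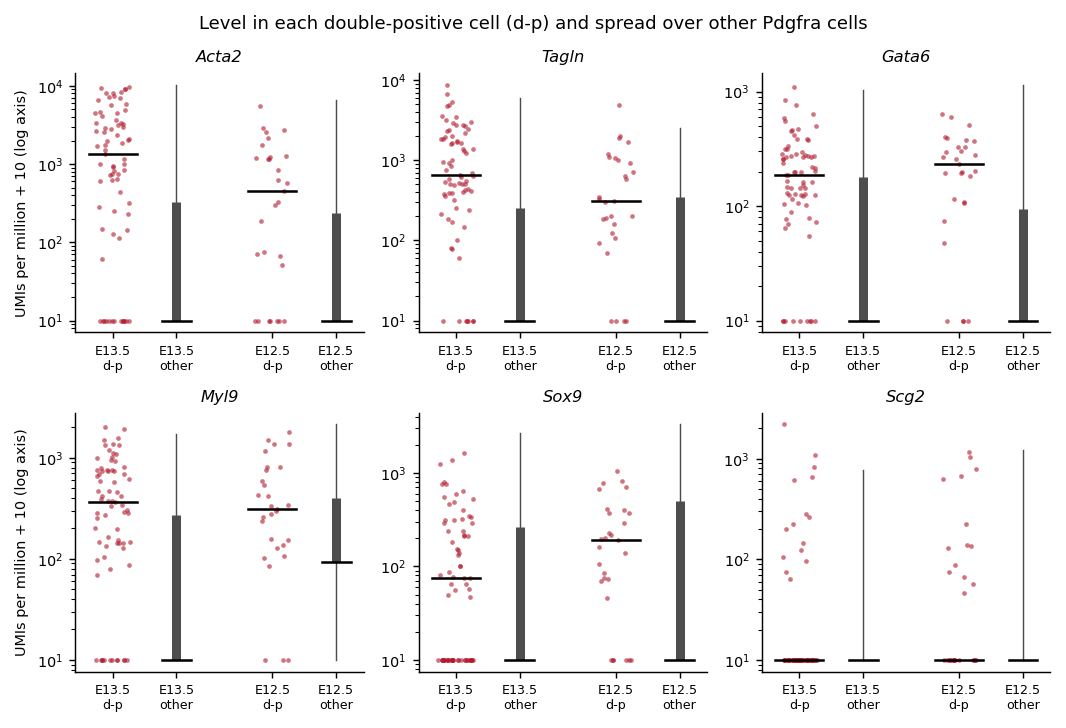
Level of 6 genes in each double-positive cell (points, with a bar at the median) and over other Pdgfra cells (thin line from lowest to highest, thick line from median to 90th percentile), in CPM plus 10 on a log axis, for E13.5 and E12.5. Acta2, Tagln, Gata6 and Sox9 have medians above 0 in double-positive cells and at 0 in other Pdgfra cells at both stages, while Scg2 is at 0 in 58 of 73 and 15 of 29 double-positive cells.

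Mural cells and developing skeletal muscle, which also make Acta2, were set beside them. Mural cells, the pericytes and smooth muscle of vessel walls, are marked by Rgs5, Kcnj8, Abcc9 and Cspg4, and these genes were scarce in double-positive cells. Rgs5 had 3 UMIs in 73 cells at E13.5 and 0 in 29 cells at E12.5, and Kcnj8, Abcc9 and Cspg4 had 2, 3 and 1 UMIs at E13.5 and 0, 0 and 1 at E12.5. The 9 genes of the mural list summed to 4268 CPM in double-positive cells against 416 CPM in other Pdgfra cells at E13.5 and to 1826 against 382 CPM at E12.5, nearly all of it from Acta2 and Tagln. Of its 4 measured genes, 2 were called higher in each library, Acta2 and Tagln, while Pdgfrb had log2 ratios of −0.27 and −0.24 and Notch3 of 0.14 and 0.12.

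Cells with 2 Rgs5 UMIs or more, 50 at E13.5, had Rgs5 at 480 CPM, Acta2 at 997 CPM, Tagln at 569 CPM and Gata6 at 5.84 CPM. At E12.5 the 82 such cells had Acta2 at 207 CPM and Tagln at 215 CPM. Double-positive cells thus had more Acta2 and Tagln than these cells in both libraries, while the Rgs5 level of these cells was fixed by their choice. At E12.5, however, the Rgs5 cells had Pdgfra at 183 CPM and Sox9 at 121 CPM, near the 219 and 149 CPM of other Pdgfra cells. At E13.5 the Rgs5 cells had 52.6 and 29.2 CPM. The E12.5 set therefore cannot be taken as mural cells alone. In developing muscle, cells with 2 Myog UMIs or more had Acta2 at 1386 CPM at E13.5 and 2174 CPM at E12.5, but Tagln at 92.7 and 90.03 CPM. Of double-positive cells, 4 of 73 at E13.5 and 3 of 29 at E12.5 had a UMI of the muscle precursor genes Pax7, Myod1 or Msc. Each gene had a larger share than in other Pdgfra cells, though on 2 or 3 double-positive cells. At E13.5 Pax7 was found in 2.74 against 1.03%, Myod1 in 2.74 against 2.56% and Msc in 4.11 against 2.65%. At E12.5 the shares were 6.90 against 1.25%, 6.90 against 2.01% and 10.3 against 2.90%. After thinning, only Msc stayed above in both libraries, and Myod1 was found in no double-positive cell. Msc was held by 3 cells in each library and was called higher in both, with log2 ratios of 1.74 and 2.30. The 8 genes of the myogenic list outside the rule summed to 31.5 CPM in double-positive cells against 75.1 CPM in other Pdgfra cells at E13.5 and to 108 against 84.8 CPM at E12.5, with 3 of the 8 at 0 in each. The rule bears on these sums, since it set Myf5 and Myog to 0, and their part in the Acta2 level was not tested.

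Markers of mature smooth muscle were low or found in few cells. Actg2, the enteric smooth muscle actin, had 75 UMIs in 21 of 73 double-positive cells at E13.5, or 71.6 CPM against 2.30 CPM in other Pdgfra cells. At E12.5 it had 3 UMIs, or 5.76 CPM (1.19 to 16.8) against 1.27 CPM (0.924 to 1.71). Myh11, the smooth muscle myosin heavy chain, had 5 UMIs at E13.5, or 4.77 CPM (1.55 to 11.1) against 0.287 CPM (0.143 to 0.514), and 0 at E12.5, where 3 UMIs correspond to 5.76 CPM. Both genes fell under the minimum for a measured gene in at least 1 library.

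Transcription factors formed a second group. Gata6, a zinc finger factor of heart, gut and smooth muscle development, had 207 CPM in double-positive cells (180 to 237) against 47.8 CPM in other Pdgfra cells at E13.5, and 230 CPM (191 to 276) against 27.1 CPM at E12.5. It was found in 64 of 73 and 25 of 29 double-positive cells, and with Sox9 in 38 and 20. Gata6os, its antisense RNA gene, had 24 and 19 UMIs, 22.9 against 2.64 CPM at E13.5 and 36.5 against 2.14 CPM at E12.5. The counting settings are not given in the sources used here, so reads of the pair may not be fully told apart. Both were higher in both libraries.

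Runx2, the paralog of Runx1 that drives bone formation, had 66.8 against 11.55 CPM at E13.5 and 55.7 against 25.3 CPM at E12.5. The log2 ratios were 2.54 (2.15 to 2.90) and 1.16 (0.55 to 1.67). Of the remaining Runx family and partner genes none was called in either library, and Cbfb, the shared partner subunit, stood at −0.01 in both. The 14 genes of the perichondrium and osteogenic list, of which 2 were measured, summed to 152 CPM in double-positive cells against 120 CPM in other Pdgfra cells at E13.5 and to 132 against 137 CPM at E12.5.

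Among 19 measured genes of limb and girdle patterning, 3 were called higher and 4 lower at E13.5, and 5 and 5 at E12.5. Alx1, a homeobox gene of craniofacial and body wall mesenchyme, had 21.0 against 3.50 CPM at E13.5 and 28.8 against 9.08 CPM at E12.5. Tbx5, the forelimb and heart T-box gene, had 42.9 against 24.7 CPM at E13.5 and 106 against 41.8 CPM at E12.5. Shox2, a homeobox gene of proximal limb, was nearly absent, at 12.4 against 83.3 CPM and, with 2 UMIs, at 3.84 against 99.4 CPM. Tbx15 and Emx2, which are needed for the shoulder blade, had 10.5 against 53.3 CPM and 5.73 against 23.0 CPM at E13.5, and 11.52 against 47.4 CPM and 13.4 against 30.4 CPM at E12.5. Tbx4, a T-box gene of the hindlimb, did not reach the minimum for a measured gene, with 10 UMIs at E13.5 and 3 at E12.5. Thus Alx1 was higher and Shox2, Tbx15, Emx2 and Tbx18 lower in both libraries.

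Genes called in both libraries numbered 99 higher (1.24% of 7967) and 103 lower (1.29%), with 5 called in opposite directions. The shared higher genes were 51.6% of the 192 called at E13.5 and 50.3% of the 197 called at E12.5, and the shared lower genes were 40.4% of 255 and 27.8% of 371. The 12 highest outside the rule, by the smaller of the 2 log2 ratios, were Scg2, Cnn1, Gata6os, Acta2, Il33, Cdc42ep3, Lgr5, Tagln, Mybpc1, Slc16a3, Prss35 and Unc5b. All but the contractile genes and Gata6os are described next.

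**Figure D3:**
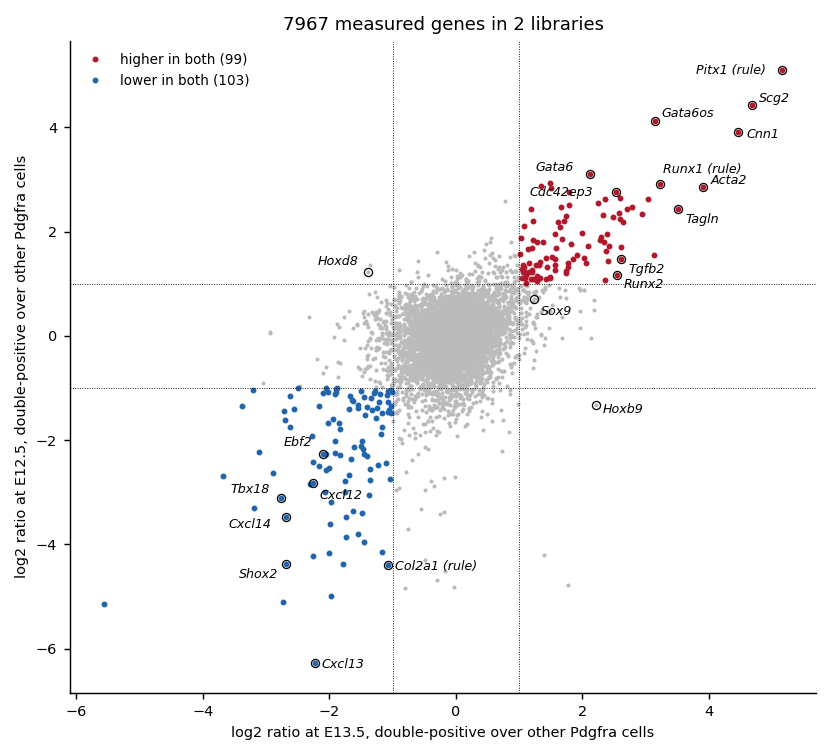
Each point is 1 of 7967 measured genes, with its log2 ratio of double-positive over other Pdgfra cells at E13.5 (x axis) and E12.5 (y axis); dotted lines mark 2-fold. The 99 genes higher in both lie at the upper right, among them Pitx1, a gene of the rule, Scg2, Cnn1, Gata6os and Acta2, and the 103 lower in both at the lower left, with Cxcl13 at the foot.

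Scg2, which encodes a granin of secretory vesicles, had 116 CPM in double-positive cells (96.7 to 139) against 4.57 CPM in other Pdgfra cells (3.92 to 5.30) at E13.5, and 175 CPM (141 to 215) against 8.21 CPM (7.28 to 9.22) at E12.5. It was found in fewer cells than Acta2: 15 of 73 and 14 of 29 double-positive cells held a UMI, and 3 cells carried 60.7 and 64.8% of the total. All of those 15 and 14 cells also had Acta2. Its UMIs thus came from a minority of the double-positive cells in both libraries.

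Cdc42ep3, an effector of the small GTPase Cdc42 that organises actin, had 299 against 51.7 CPM at E13.5 and 363 against 53.8 CPM at E12.5, and was found in 62 of 73 and 23 of 29 double-positive cells. Prss35, a secreted protease-like protein, had 260 against 50.7 CPM and 169 against 27.6 CPM. Lgr5, a receptor for R-spondins in WNT signalling, had 76.3 against 11.1 CPM and 42.2 against 7.80 CPM. Slc16a3, a lactate transporter, had 53.4 against 9.07 CPM and 49.9 against 9.91 CPM. These 4 genes had ratios of a similar size at the 2 stages, with log2 values between 2.36 and 2.79.

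The last 3 rested on few UMIs at E12.5. Mybpc1, slow-type myosin-binding protein C, had 49 UMIs in E13.5 and 9 in E12.5 double-positive cells, with log2 ratios of 2.70 (2.22 to 3.13) and 2.43 (1.19 to 3.33). Il33, a nuclear cytokine, had 32 and 9 UMIs, with 2.59 (1.99 to 3.12) and 2.65 (1.41 to 3.56). Unc5b, a netrin receptor, had 26 and 12 UMIs, with 2.94 (2.25 to 3.53) and 2.34 (1.31 to 3.13).

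The 12 lowest genes were Rtn1, Tbx18, Sparcl1, Shox2, Thbs4, Cxcl14, Wnt4, Vstm4, Cxcl12, Gap43, Stmn2 and Cxcl13. Chemokines were prominent among them. Cxcl12, which guides cells through the receptor Cxcr4, had 52.5 CPM in double-positive cells against 255 CPM in other Pdgfra cells at E13.5 and 32.6 against 237 CPM at E12.5. Cxcl14 had 22.9 against 150.01 CPM and 15.4 against 182 CPM. Cxcl13 had 9.54 against 47.1 CPM at E13.5 and no UMI against 74.3 CPM at E12.5, at least 12.9-fold lower when 3 UMIs over the group are taken as the floor. Of the 6 measured genes of the chemokine list, 5 were called lower at E13.5, and 3 lower and 1 higher at E12.5, with medians of −2.05 and −1.80. The ratio intervals of Cxcl12 and Cxcl14 lay wholly below 2-fold lower in both libraries.

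Tbx18, a T-box gene of sclerotome and limb mesenchyme, had 6 UMIs at E13.5 and 2 at E12.5, 5.73 against 41.9 CPM and 3.84 against 41.7 CPM. Wnt4, a ligand of joint and kidney development, also had 6 and 2 UMIs, 5.73 against 46.0 CPM and 3.84 against 29.7 CPM. Thbs4, a tendon matrix protein, had 3 and 1 UMIs, with log2 ratios of −3.69 (−6.19 to −2.36) and −2.68 (−8.57 to −0.78). The rule bears on Thbs4, since it limited the tendon genes Scx and Tnmd in double-positive cells only. Over the alternative settings the Thbs4 log2 ratio ranged from −4.55 to −3.12 at E13.5 and from −2.89 to −2.07 at E12.5. Vstm4, a membrane protein of vessel walls, had 5 and 1 UMIs, with −2.30 (−4.07 to −1.21) and −2.84 (−8.73 to −0.94). Sparcl1, a matricellular protein, had 7 UMIs at E13.5, 6.68 against 47.7 CPM, and none at E12.5, at least 5.77-fold lower than the 33.2 CPM of other Pdgfra cells. All 5 were thus low with wide intervals at E12.5.

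Rtn1, Gap43 and Stmn2 are genes of neurons. Rtn1 had 3.82 against 39.0 CPM at E13.5 and 7.68 against 85.3 CPM at E12.5, Gap43 37.2 against 181 CPM and 15.4 against 86.8 CPM, and Stmn2 6.68 against 34.1 CPM and 1.92 against 53.7 CPM. The rule set Elavl3 to 0 in double-positive cells, whereas other Pdgfra cells could hold neuronal RNA, and free RNA outside cells held 144 and 357 CPM of Rtn1. With other Pdgfra cells put under the same exclusions, the log2 ratio of Rtn1 was −1.84 at E13.5 and −0.69 at E12.5, against −3.18 and −3.30 without them. Gap43 then stood at −2.42 and −2.44 and Stmn2 at −2.04 and −2.98. Under these exclusions 10 of the 12 lowest genes were still called lower in both libraries.

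Ligands and regulators of TGF-beta signalling were mixed. This pathway passes signals of secreted dimers through serine kinase receptors to Smad factors and is known for inducing contractile genes and matrix. Tgfb2, a ligand, had 656 CPM in double-positive cells (607 to 706) against 107 CPM in other Pdgfra cells (104 to 111) at E13.5, and 495 CPM (437 to 560) against 178 CPM (174 to 183) at E12.5, and was found in 64 of 73 and 27 of 29 double-positive cells. Inhba, an activin subunit, had 99.2 against 37.0 CPM and 102 against 36.3 CPM. Tgfb3, another ligand, had 45.8 against 22.2 CPM and 53.8 against 23.4 CPM. The receptors Tgfbr1 and Tgfbr2 were not called, and the co-receptor Tgfbr3 was lower, at 19.1 against 47.8 CPM and 11.52 against 26.9 CPM.

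Of 12 measured genes of that list, 3 were called higher and 1 lower at E13.5, and 4 and 1 at E12.5. Bambi, a decoy receptor that dampens BMP and TGF-beta signals, had 106 against 32.6 CPM and 152 against 33.0 CPM. It was the single gene among 17 measured BMP and GDF genes called higher in both libraries. The BMP targets Id1, Id2 and Id3 stayed within 2-fold, with log2 ratios of −0.49 and 0.06, −0.20 and −0.09, and 0.41 and 0.54.

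WNT genes were higher more often than lower. WNT ligands act through Frizzled receptors, with beta-catenin and Lef1 on the nuclear side. Of 19 measured genes 4 were called higher and 1 lower at E13.5, and 7 and 2 at E12.5, with medians of 0.69 and 0.79. Wnt2, a ligand, had 36.3 against 15.9 CPM and 82.6 against 18.2 CPM. Nkd2, an inhibitor induced by the pathway, had 27.7 against 12.2 CPM and 30.7 against 13.499 CPM. The target Axin2 had log2 ratios of 0.70 (0.16 to 1.15) and 0.98 (0.36 to 1.49), and Lef1 of 0.86 (0.39 to 1.28) and 1.79 (1.33 to 2.19). Wnt2, Nkd2 and Lgr5 were the WNT genes called higher in both libraries, and Wnt4 the one called lower in both.

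Among FGF pathway genes, Spry2 and Dusp6 were lower in both libraries. Spry2 and Dusp6, feedback inhibitors of FGF signalling, had 9.54 against 41.4 CPM and 6.68 against 22.2 CPM at E13.5, and 7.68 against 41.7 CPM and 9.60 against 24.95 CPM at E12.5. Fgf18, a ligand of skeletal mesenchyme, had 5.73 against 36.7 CPM and 9.60 against 28.0 CPM. These 3 of 7 measured genes were called lower in both libraries, and Spry1, another feedback inhibitor, had log2 ratios of −0.80 and −1.12, called lower at E12.5 only. The receptors differed: Fgfr1 had log2 ratios of 0.05 and 0.27, and Fgfr2 of 1.36 and 0.89, called higher at E13.5.

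The matrix gene list, of which all 20 genes were measured, stayed near the level of other Pdgfra cells, with medians of 0.07 and −0.09. Col1a1 had 3576 against 2655 CPM at E13.5 and 1542 against 1077 CPM at E12.5, and Col14a1, a collagen of dermis and tendon, was called lower in both, at 79.2 against 171 CPM and 11.52 against 67.6 CPM. Matrix proteases differed more: Htra1, a secreted serine protease, had 147 against 47.2 CPM and 90.3 against 21.5 CPM, Adamts9, which cleaves versican, 119 against 47.9 CPM and 96.0 against 44.7 CPM, and Mmp23 42.9 against 8.96 CPM and 19.2 against 5.61 CPM. These 3 of 13 measured genes were called higher in both libraries.

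**Figure D4:**
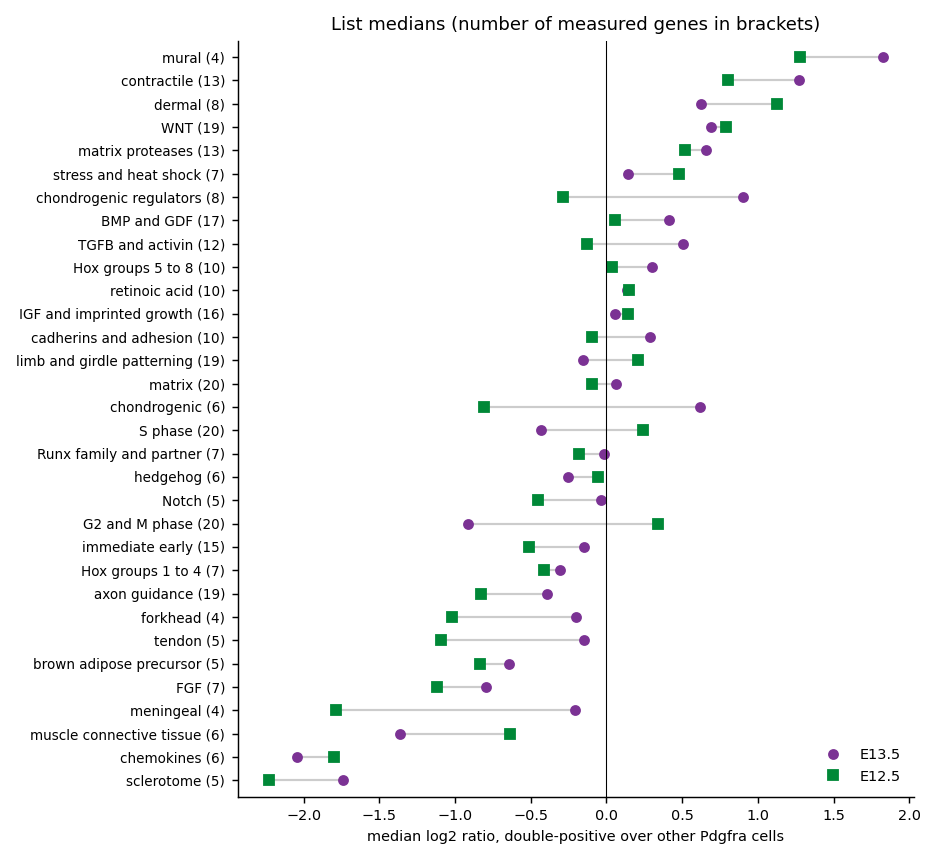
Median log2 ratio of double-positive over other Pdgfra cells for each gene list with at least 4 measured genes (number in brackets), at E13.5 (circles) and E12.5 (squares); the erythroid list is not drawn. The mural list, of whose 4 measured genes only Acta2 and Tagln were called higher, and the contractile list lie highest. The sclerotome and chemokine lists lie lowest. Several lists, among them G2 and M phase and chondrogenic, lie on opposite sides of 0 at the 2 stages.

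Genes of several other mesenchymal fates were lower. For the sclerotome, which gives rise to vertebrae and ribs, 3 of 5 measured genes of its list were called lower at E13.5 and 5 of 5 at E12.5, with medians of −1.74 and −2.23 and list sums of 99.2 against 253 CPM and 84.5 against 429 CPM. Its defining genes Pax1 and Pax9 had 2 UMIs each in double-positive cells at E13.5, and 2 and 0 at E12.5, under the minimum for a measured gene. The rule may bear on the sclerotome list, since it kept Col2a1 below 10 UMIs in double-positive cells only. Meox2, a homeobox gene of somite derivatives, had 22.9 against 78.0 CPM and 3.84 against 69.3 CPM. Osr1, which marks connective tissue of muscle, had 36.3 against 139 CPM and 28.8 against 142 CPM. It was found in 13.7% of double-positive cells against 60.5% of other Pdgfra cells at E13.5, and in 13.8 against 51.7% at E12.5.

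Ebf2, a factor of brown adipose precursors, had 31.5 CPM in double-positive cells against 136 CPM in other Pdgfra cells at E13.5 and 26.9 against 133 CPM at E12.5. Sox9, Ebf2 and Pdgfra occurred together in 5 of 73 double-positive cells at E13.5 (6.85%, 2.26 to 15.3%) and 5 of 29 at E12.5 (17.2%, 5.85 to 35.8%). Gata6, also listed for brown adipose precursors, went the other way, as described above. Dermal genes were not lower as a list. Of the 8 measured dermal genes outside the rule, 1 was called higher and 1 lower at E13.5 and 5 higher and 1 lower at E12.5. The medians were 0.63 and 1.13, with list sums of 3180 against 2727 CPM and 2214 against 1473 CPM. En1, a homeobox gene of the dermomyotome and ventral ectoderm, had 102 against 42.2 CPM and 125 against 36.1 CPM. Crabp1, which binds retinoic acid, was lower, at 285 against 789 CPM and 102 against 465 CPM.

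Hox genes, whose order along the chromosome follows the body axis, gave a mixed picture. Hoxc8 was higher in both libraries, at 172 against 51.4 CPM and 96.0 against 40.8 CPM, and Hoxa5 lower in both, at 16.2 against 39.0 CPM and 21.1 against 124 CPM. Hoxb9 was higher at E13.5, at 57.3 CPM (43.7 to 73.7) against 12.49 CPM (11.4 to 13.7), and lower at E12.5, at 11.52 CPM (4.23 to 25.1) against 31.4 CPM (29.6 to 33.3). Hoxd8 was lower at E13.5, with 9.54 against 26.1 CPM, and higher at E12.5, with 24.96 against 11.2 CPM. Against other Pdgfra cells under the same exclusions, the E12.5 log2 ratio of Hoxb9 was 0.70, against −1.33 without them. RNA outside cells held 65.0 and 144 CPM of Hoxb9, and its part in these values was not tested.

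Cells with 1 gene of the pair stood between double-positive and other Pdgfra cells in their Acta2 level. They passed the exclusions and needed no Pdgfra UMI, and those with one are also counted among other Pdgfra cells, so the sets overlap. Double-positive cells had 2766 CPM of Acta2 at E13.5 and 1048 CPM at E12.5, cells with Pitx1 only had 543 CPM (502 to 587) and 276 CPM (238 to 318), and cells with Runx1 only had 294 CPM (281 to 308) and 170 CPM (157 to 184). Tagln shared this order at E13.5, at 282 CPM with Pitx1 only and 181 CPM with Runx1 only against 125 CPM in other Pdgfra cells. At E12.5 it did not, at 85.1 CPM (64.6 to 110) and 155 CPM (142 to 168) against 130 CPM (127 to 134). Cnn1 had 9.29 and 6.04 CPM against 4.10 CPM at E13.5. At E12.5 it had 2.94 CPM (0.355 to 10.6) and 3.61 CPM (1.92 to 6.17) against 2.75 CPM. Gata6, at 207 and 230 CPM in double-positive cells, was at 131 CPM (111 to 153) and 110 CPM (86.6 to 138) in cells with Pitx1 only, and at 38.4 CPM (33.8 to 43.6) and 44.4 CPM (37.8 to 51.9) in cells with Runx1 only. The Gata6 level was thus higher with Pitx1 only than with Runx1 only in both libraries.

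Sox9, at 177 and 244 CPM in double-positive cells, was in cells with Pitx1 only at 82.8 CPM (67.2 to 101) and 51.4 CPM (35.8 to 71.4), and in cells with Runx1 only 62.9 CPM (56.9 to 69.4) and 192 CPM (178 to 207). Scg2 was at 116 and 175 CPM in double-positive cells, against 5.91 and 29.4 CPM with Pitx1 only and 3.34 and 21.7 CPM with Runx1 only. The median depth was 14239 and 16715 UMIs in double-positive cells and 10483 to 12484 UMIs in the cells with 1 gene, and the part of depth in these differences was not tested.

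**Figure D5:**
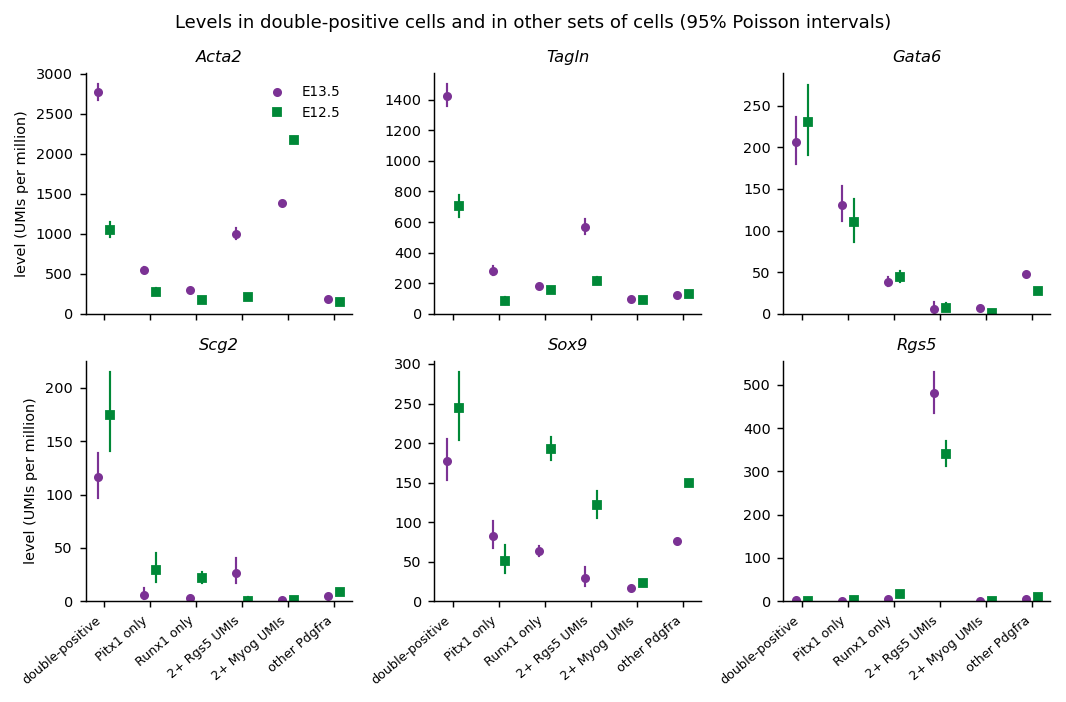
Levels of 6 genes in CPM, with exact 95% Poisson intervals, in double-positive cells, cells with Pitx1 only or Runx1 only, cells with 2 or more Rgs5 or Myog UMIs and other Pdgfra cells, at E13.5 (circles) and E12.5 (squares). Tagln and Gata6 are highest in double-positive cells at both stages, Acta2 is higher in the Myog cells at E12.5, and Rgs5 is at 3 UMIs or fewer in double-positive cells.

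Between stages, double-positive cells at E13.5 had more Acta2, Tagln and Cnn1 than those at E12.5. The log2 ratio of E13.5 over E12.5 was 1.399 for Acta2 (1.27 to 1.53), 1.02 for Tagln (0.86 to 1.19) and 1.13 for Cnn1 (0.46 to 1.91), and in other Pdgfra cells the same ratio was 0.34, −0.06 and 0.58. Myl9, at 0.03 (−0.18 to 0.25), and Actn1, a link of actin filaments, at −0.44 (−0.77 to −0.11), did not share this, and the median of the 13 measured contractile genes was 0.27. Gata6 and Runx2 had intervals that included 0, at −0.16 (−0.48 to 0.18) and 0.25 (−0.38 to 0.94). Of 8306 genes with a mean of 10 CPM or more in double-positive cells, 396 were called higher at E13.5 (4.77%) and 612 lower (7.37%).

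Cell cycle genes were lower in double-positive cells at E13.5 than at E12.5. Mki67, a marker of cycling cells, had 42.0 CPM in double-positive cells at E13.5 (30.5 to 56.4) against 127 CPM at E12.5 (98.0 to 161), and 111 against 95.4 CPM in other Pdgfra cells. It was found in 16.4% of double-positive cells against 28.8% of other Pdgfra cells at E13.5, and in 27.6 against 27.0% at E12.5. Top2a, which untangles DNA before mitosis, had 140 CPM at E13.5 against 344 CPM at E12.5 in double-positive cells, and 264 against 267 CPM in other Pdgfra cells. All 20 genes of the G2 and M phase list were measured, and 6 were called lower than in other Pdgfra cells at E13.5 and none at E12.5, with medians of −0.91 and 0.34. S phase genes had medians of −0.43 and 0.24 with none called.

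The 5 genes with the largest stage ratio upward, Tspan8, Anxa1, Chpf2, Pamr1 and Dusp8, had no UMI in double-positive cells at E12.5. Tspan8, a tetraspanin, had 65 UMIs in 18 cells at E13.5, 62.0 CPM, at least 10.8-fold higher than the floor of 3 UMIs at E12.5. The other 4 had 27 to 31 UMIs, at least 4.47- to 5.14-fold above that floor. Downward, Crym, which binds thyroid hormone, had no UMI at E13.5 and 13 at E12.5, at least 8.72-fold lower. Rbm38, Spata31d1a, Rnaset2b and Tinf2 had 1 UMI each at E13.5 and 10 to 15 at E12.5, and in other Pdgfra cells the log2 ratio of Rnaset2b was −4.503.

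Red cell RNA differed between the stages as well. Haemoglobin made up 0.760% of the UMIs of double-positive cells against 0.716% of other Pdgfra cells at E13.5, and 0.0234 against 0.394% at E12.5. A single double-positive cell at E13.5 held 257608 CPM of the erythroid list, while the median was 532 CPM. The erythroid list had medians of −0.42 and −4.08. Immediate early genes, which cells switch on within minutes of stimulation, were higher at E13.5 in both sets: Fos had 392 against 99.9 CPM in double-positive cells and 453 against 173 CPM in other Pdgfra cells. Of 15 measured genes of that list, 1 was called higher and 1 lower in double-positive cells at each stage.

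The E11.5 library held 17 cells that met the same rule among 6313 kept cells (0.269%, 0.157 to 0.431%), set beside 1998 other Pdgfra cells. Acta2 had 689 against 103 CPM, Tagln 474 against 103 CPM and Gata6 310 against 49.9 CPM, all higher as at the later stages. Sox9 was lower, at 61.4 against 219 CPM, a log2 ratio of −1.79 (−2.59 to −1.17). Ebf2 and Osr1 had no UMI in the 17 cells, against 88.7 and 32.0 CPM in other Pdgfra cells.

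Of the 12 highest genes 8 reached 10 CPM on average at E11.5 and all 8 were called higher, where 6.77% of 8135 measured genes were called higher and 6.21% lower. Il33, Lgr5, Mybpc1 and Scg2 stayed under the minimum. A gene scarce in other Pdgfra cells reaches this minimum only if it is high in the 17 cells, which fixes its call in advance. Cnn1, for example, had a UMI in 2 of the 17 cells and in 3.10% of other Pdgfra cells. The 8 calls are therefore a description and no separate support for the later stages. Of the 12 lowest genes 9 were measured, of which 6 were called lower and 1, Wnt4, was called higher, at 40.9 against 15.2 CPM. Scg2 was found in 1 of the 17 cells.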

How the data were processed

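Single-cell RNA of 3 trunk libraries (E13.5, E12.5, E11.5; 1 each) was analysed. The deposited UMI counts per gene and barcode were made with Cell Ranger 8.0.1 on GRCm39, per the submitters' processing notes; the sources used here do not state the annotation release or counting settings. The members, gene lists and comparisons were chosen with earlier results of these data known, and the contractile list after its values were seen.

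UMIs were summed over cells and expressed as CPM with exact 95% Poisson intervals. Log2 ratios had 0.5 UMIs added, with exact conditional binomial intervals; shares have Clopper-Pearson intervals. All cover counting error only. Genes with a mean of 10 CPM or more in both libraries were measured and called at 2-fold; no p-value was computed. Shares were also given after thinning to 4000 UMIs. Doublets were marked with scrublet in scanpy 1.11.5 and kept. Free RNA came from droplets of 50 to 500 UMIs, and its share was estimated from haemoglobin in Pdgfra cells under 1% haemoglobin; with all Pdgfra cells the estimate was 27.9% at E13.5 and 19.9% at E12.5.

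Named genes were the 12 highest and 12 lowest called in both libraries by the smaller absolute ratio (rule, Pdgfra, haemoglobin, mitochondrial, ribosomal, sex-linked and unnamed model genes left out), 5 each way between stages, and list genes; some genes are not reported here. In simulated counts with counting error only, all 4-fold raised genes were recovered (100% at both stages). Of 4-fold lowered genes 100% were recovered at E13.5 and 98% at E12.5. Of unchanged genes 0.232% were called at E13.5 and 1.98% at E12.5. The simulation held no spread between cells, so these rates do not cover genes carried by few cells, such as Scg2 and Msc. Software was Python 3.11.15, numpy 2.4.6, scipy 1.17.1, pandas 2.3.3 and matplotlib 3.10.9.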

Additional observations from a re-analysis of the deposited data

Results flagged for a closer look

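Some results stood on opposite sides of 0 in the 2 libraries. The median log2 ratio of double-positive over other Pdgfra cells was 0.62 at E13.5 and −0.81 at E12.5 for the chondrogenic list, and −0.91 and 0.34 for the G2 and M phase list. In the same order of stages, Hoxd8 had log2 ratios of −1.38 and 1.21 and Hoxb9 of 2.21 and −1.33. Against other Pdgfra cells under the same exclusions, the E12.5 values were 0.49 for the chondrogenic list and 0.70 for Hoxb9, on the same side of 0 as at E13.5. With 1 library per stage the difference was not tested for any of them. Outside the 2 stages that the comparison uses, 17 cells of the E11.5 library met the same rule.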

How the results depend on the processing

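The number of double-positive cells followed the rule: it was 39 at E13.5 and 17 at E12.5 with 2 UMIs or more of both genes, 42 and 11 with the rule applied after thinning, and 113 and 71 without the exclusions. Genes called in both libraries numbered 34 higher and 20 lower with a minimum of 50 CPM, 256 and 284 at 1.5-fold, and 4210 and 561 with no minimum, where 3067 of the 4210 had no UMI in double-positive cells of either stage. Under the other settings they ranged from 75 to 130 higher and from 93 to 145 lower. Sox9 at E12.5 had a log2 ratio of 1.01 for double-positive cells with Pdgfra, 1.61 against cells under the same exclusions, 1.17 against cells without Pitx1 or Runx1, and 0.026 without the exclusions; the cause was not tested. Of 600 alternative values of named genes 536 lay within the original interval, 64 outside it, and 0 changed sign. Of 856 alternative list medians 821, 35 and 47 did so, and the 47 belonged to lists whose original median was under 1 in size. The erythroid and neuron medians were not run with free RNA subtracted or with haemoglobin dropped from the total. The 3 alternatives without Pax7, Myod1 or Msc cells, against cells without Pitx1 or Runx1, and without the exclusions were chosen after seeing the data. No paired analysis was possible because each stage has 1 library, which also means that no replicate could be left out.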
